A study of Mus musculus with 11 samples.

Results

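The comparison described here set 3 arrays of livers given the NICD1 vector directly against 3 arrays of livers given the NICD2 vector, which are 6 of the 11 arrays of the series. The arrays were assigned to the groups by their labels. The proteins they carry, NICD1 and NICD2, are the parts of the receptors Notch1 and Notch2 that lie inside the cell, and such a part on its own acts as a receptor that is always on. All mice were C57Bl6/J males aged 8 weeks that received AAV8 vectors into the peritoneum, and liver RNA was taken at day 5. Each NICD1 mouse received 3e+11 viral genomes of the NICD1 vector and 3e+11 of the GFP vector, and each NICD2 mouse received 3e+11 of the NICD2 vector and 3e+11 of the GFP vector, so both groups had the same load of 6e+11 and differed in the NICD vector. The amounts of NICD1 and NICD2 made are not known here, so the receptor domain and its amount cannot be told apart. The 3 GFP mice received 6e+11 of the GFP vector, and the 2 NICD1&2 mice received 3e+11 of each NICD vector and none of the GFP vector. Their levels are given beside the comparison. The vectors carried the CMV promoter, which is not particular to hepatocytes, and the RNA came from whole liver, so a change in the number of cells of a type and a change in their RNA cannot be told apart. The labels do not say whether each array is a separate mouse, and p-values measure the spread between these arrays.

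When a Notch receptor is bound by a ligand on a neighbouring cell, its intracellular domain is cut free, enters the nucleus and binds the DNA-binding protein RBPJ, which turns on targets such as Hes1, Hey1 and Nrarp. In liver this pathway is known for making bile ducts from hepatoblasts, and for acting in regeneration and in liver cancer. The question of the comparison was how the response to the Notch1 domain differs from that to the Notch2 domain, the study having asked about their effects on the growth and death of hepatocytes.

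Signals were log2 values relative to the 75th percentile of each array, here called the log2 level, so that 1 unit is a factor of 2. All values of a difference below are on this log2 scale, with the standard error of the limma fit. Between 57.4% and 62.0% of spots were well above background on the 6 arrays, 36052 probes were tested, and 16635 genes had a probe named through RefSeq. Of the 6 arrays, NICD1 1, NICD2 1 and NICD2 2 lay on slide 1 and NICD1 2, NICD1 3 and NICD2 3 on slide 2, so both groups were on both slides. The labelled tissue was borne out by its markers: albumin (Alb) was at 10.06 ± 0.20 (SD, n = 3) with NICD1 and 10.14 ± 0.17 (SD, n = 3) with NICD2, and Ttr at 8.61 ± 0.22 and 8.74 ± 0.14 (SD, n = 3 each).

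The livers with NICD1 and with NICD2 resembled each other closely. Across all probes the 9 pairs of an NICD1 and an NICD2 array correlated at 0.986 to 0.991, against 0.989 to 0.991 for the 3 pairs within NICD1 and 0.985 to 0.989 for the 3 pairs within NICD2, values across genes that are not independent replicates. In limma 1 probe, that of the keratin gene Krt79, passed an adjusted p under 0.05, which is 0.00277% of the probes tested. At an unadjusted p under 0.05 there were 1344 probes (3.73%), against 1802.6 expected if no probe differed. By the study's own definition of altered genes, P below 0.15 before adjustment with a difference of more than 1.8-fold, 262 probes were higher with NICD1 (0.727% of those tested) and 176 were higher with NICD2 (0.488%). This balance turned with the processing, to 219 and 227 with quantile normalization, 209 and 211 with slide as a block and 24 and 62 among probes well above background on all arrays. It was 549 and 264 without NICD2 1, 510 and 210 without NICD2 3, 216 and 300 without NICD2 2 and 269 and 315 without NICD1 3. Of the 262, 89 were well above background on all 3 NICD1 arrays, and of the 176, 96 were well above background on all 3 NICD2 arrays. The median probe had a 95% interval of 0.39 either side of its difference, a factor of 1.31, and the number of arrays limits the precision.

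No single gene could pass the exact permutation test, since 3 arrays against 3 allow no p under 0.1.

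**Figure D1:**
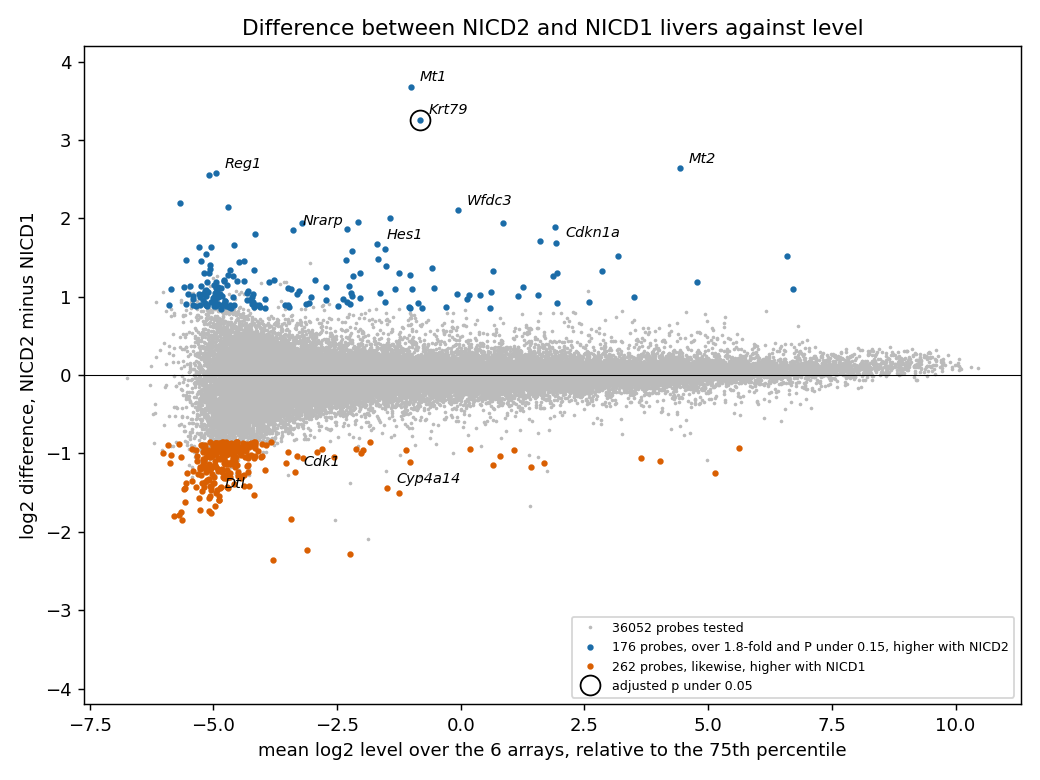
Difference between the NICD2 and NICD1 groups (vertical axis, log2, NICD2 minus NICD1) against the mean log2 level over the 6 arrays (horizontal axis) for the 36052 probes tested. Blue and orange points are the 176 and 262 probes that met the study's definition, the ringed point is Krt79, and most orange points lie at the dim left end while Mt1, Krt79 and Mt2 are the 3 highest points.

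The promoters of 5 genes with higher levels in NICD2 livers are shown because the results turn on these genes. Each is the 250 bases before the gene's start, 5′ to 3′ on the gene's strand, from RefSeq on build GRCm38.p6. In the first 3, capitals mark TGGGAA or its reverse complement, the core of the sites that RBPJ binds, which 21.6% of 32851 promoter windows of this length hold. In Mt2, capitals mark TGCGCNC and TGCACNC on either strand, the core of the metal response element, held by 12.5% and 10.4% of windows. In Cdkn1a, capitals mark the decamer of p53 response elements, held by 7.13%, and the window is that of the upstream start of the 2 that RefSeq gives. A match is a description of letters and says nothing of binding in these livers.
Krt79, chr15:101940325-101940574, minus strand: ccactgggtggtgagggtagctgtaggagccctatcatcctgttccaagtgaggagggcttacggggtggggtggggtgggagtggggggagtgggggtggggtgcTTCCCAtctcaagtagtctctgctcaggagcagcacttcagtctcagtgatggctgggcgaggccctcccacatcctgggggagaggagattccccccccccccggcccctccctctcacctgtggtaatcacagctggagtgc
Wfdc3, chr2:164743268-164743517, minus strand: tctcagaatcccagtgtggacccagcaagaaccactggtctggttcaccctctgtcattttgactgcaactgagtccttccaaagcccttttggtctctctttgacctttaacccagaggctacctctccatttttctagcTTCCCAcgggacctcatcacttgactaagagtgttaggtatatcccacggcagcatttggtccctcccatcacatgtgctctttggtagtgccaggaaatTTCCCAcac
Slc10a6, chr5:103629404-103629653, minus strand: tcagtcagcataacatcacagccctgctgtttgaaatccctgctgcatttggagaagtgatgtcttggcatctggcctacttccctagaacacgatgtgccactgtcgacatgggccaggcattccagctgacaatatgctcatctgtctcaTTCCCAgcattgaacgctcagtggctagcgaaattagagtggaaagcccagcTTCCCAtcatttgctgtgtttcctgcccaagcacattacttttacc
Mt2, chr8:94172368-94172617, plus strand: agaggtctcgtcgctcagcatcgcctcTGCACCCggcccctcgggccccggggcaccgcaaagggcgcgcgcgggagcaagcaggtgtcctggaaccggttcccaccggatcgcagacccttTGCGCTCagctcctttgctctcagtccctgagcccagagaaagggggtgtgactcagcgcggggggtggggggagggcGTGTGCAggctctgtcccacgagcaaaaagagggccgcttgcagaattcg
Cdkn1a, chr17:29090729-29090978, plus strand: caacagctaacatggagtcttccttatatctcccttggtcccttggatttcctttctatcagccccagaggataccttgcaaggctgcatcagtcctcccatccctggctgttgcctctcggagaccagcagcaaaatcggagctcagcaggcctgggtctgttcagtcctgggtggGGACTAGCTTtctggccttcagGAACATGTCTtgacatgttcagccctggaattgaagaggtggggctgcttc

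The Krt79 window held 1 such core, those of Wfdc3 and Slc10a6 held 2 each, and the Nrarp window held 0. The Mt2 window held 3 metal response cores, and 1 TGGGAA core that is not in capitals, and that of Mt1 held 1 metal response core. The upstream Cdkn1a window held 2 p53 decamers, the downstream one 0, and that of Phlda3 0.

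Krt79, a keratin of skin and its glands, had the lowest p of all probes tested. It stood at log2 levels of -2.79, -2.28 and -2.31 on the NICD1 arrays and at 0.81, 0.61 and 0.97 on the NICD2 arrays. The groups lay far apart, with each NICD2 array above all NICD1 arrays by several times the spread within a group. The difference was 3.26 higher with NICD2 (standard error 0.19, 95% interval 2.84 to 3.68, limma adjusted p = 0.00111), a 9.56-fold difference. The GFP arrays, at -3.21, -2.82 and -3.24, lay just below the NICD1 arrays, and the NICD1&2 arrays, at 0.23 and 0.55, lay just below the NICD2 arrays. Fitted on the 6 arrays alone the adjusted p was 0.0645, and with normexp background correction and quantile normalization together the difference was 2.05.

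Wfdc3, which encodes a small secreted protein with whey acidic protein domains, was graded between the groups. Its levels were -1.24, -0.95 and -1.13 with NICD1 and 0.81, 1 and 1.18 with NICD2. It was higher by 2.10 with NICD2 (standard error 0.20, limma adjusted p = 0.0519), and its other probe by 1.86. Both NICD groups were far above GFP, which lay at -4.23, -3.77 and -4.35, and the NICD1&2 arrays were at 0.89 and 1.51, the level of NICD2. The adjusted p was on either side of 0.05 over the alternatives, from 0.000386 with normexp and quantile normalization together and 0.0286 with quantile normalization alone to 0.141 with slide as a block, 0.305 without moderation and 0.495 without NICD1 1. Slc10a6, a sodium-coupled transporter of sulfated steroids, had the next lowest adjusted p, 0.126. Its levels were -5.13, -4.96 and -5.23 with NICD1, not well above background on any of those arrays, and -3.35, -3.63 and -3.95 with NICD2, which gives a difference of at least 2.59-fold. Such bounds, here and below, set the dim group at the lowest signal well above background on each array. They allow for the dim signal in the group means only and leave out the spread between arrays. The interval of a difference can therefore reach a smaller fold than the bound. For Slc10a6 the interval was 1.09 to 1.84 (NICD2 minus NICD1).

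Some other genes of secretory epithelia had the same order, with GFP lowest, NICD1 between and NICD2 higher. The 23 tested genes of a list of secretory epithelial genes included 4 that met the definition with NICD2 higher and 0 with NICD1 higher, against 0.445% and 0.565% of all genes, and the median of the list was 0.01 higher with NICD2, against 0.02 over all genes. These 4 were Wfdc3, Scgb1a1, Tmprss7 and Pnliprp1. The list, like the other gene lists here, was chosen with earlier results of these data known, so its counts are not independent support. Scgb1a1, the secretoglobin of airway club cells, was at -2.89, -1.57 and -2.83 with NICD1 and at -1.02, -0.11 and -0.15 with NICD2. The groups did not overlap, and the difference was 2.00 (standard error 0.41, limma adjusted p = 0.729). Tmprss7, a membrane serine protease, was at -3.13, -2.45 and -3.58 with NICD1 and at -1.16, -1.19 and -0.94 with NICD2, a difference of 1.96 (standard error 0.35, limma adjusted p = 0.493, and over the alternatives from 0.0113 with normexp and quantile normalization together to 1). Pnliprp1, a relative of pancreatic lipase, was higher by 1.94 with NICD2 (standard error 0.32), at -3.71, -4.06 and -4.74 against -2.05, -2.50 and -2.14. The other 19 members did not meet the definition. For them NICD2 minus NICD1 ran from -1.06 for the mucin Muc13 (standard error 0.78) to 0.25 for the trefoil factor Tff1 (standard error 0.32), and was -0.01 for the mucin Muc5b (standard error 0.45).

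Reg1, a secreted protein of regenerating islets and gut, was not well above background on any NICD1 array. It was at -3.64, -3.84 and -3.49 with NICD2, at least 2.74-fold higher by the bound (interval of NICD2 minus NICD1 1.72 to 3.43). Reg1 and Pnliprp1 are both made by exocrine pancreas, and of 10 tested genes of a pancreas list they were the 2 that met the definition, against 0.445% of all genes with NICD2 higher. Pnliprp1 is thus counted in both lists, and the pancreas list too was chosen with earlier results of these data known. Among the rest, Cela2a was at 0.71 ± 0.06 with NICD1 and 0.67 ± 0.18 with NICD2 (SD, n = 3 each), and Cpa1 and Pnlip were not well above background on enough arrays to be tested. Fam107a, an actin-associated gene, was at least 2.90-fold higher with NICD2 by the bound for one probe (interval of NICD2 minus NICD1 1.02 to 3.26). Its other, brighter probe gave -0.25 for NICD2 minus NICD1. Defb1, a beta defensin, was higher by 1.03 (standard error 0.17), Akr1b7, an aldo-keto reductase, by 1.30 (standard error 0.23) and Zbtb16, a transcriptional repressor, by 1.71 (standard error 0.60), or by 1.11 without NICD1 1. Defb1, Akr1b7 and the next probe were named after their values were seen. Probe A_66_P115236, which RefSeq accessions did not name, was higher by 1.94 (standard error 0.26, limma adjusted p = 0.269, and over the alternatives from 0.00743 with normexp and quantile normalization together to 0.804), at -0.07, 0.04 and -0.31 with NICD1 and at 1.48, 1.83 and 2.17 with NICD2.

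**Figure D2:**
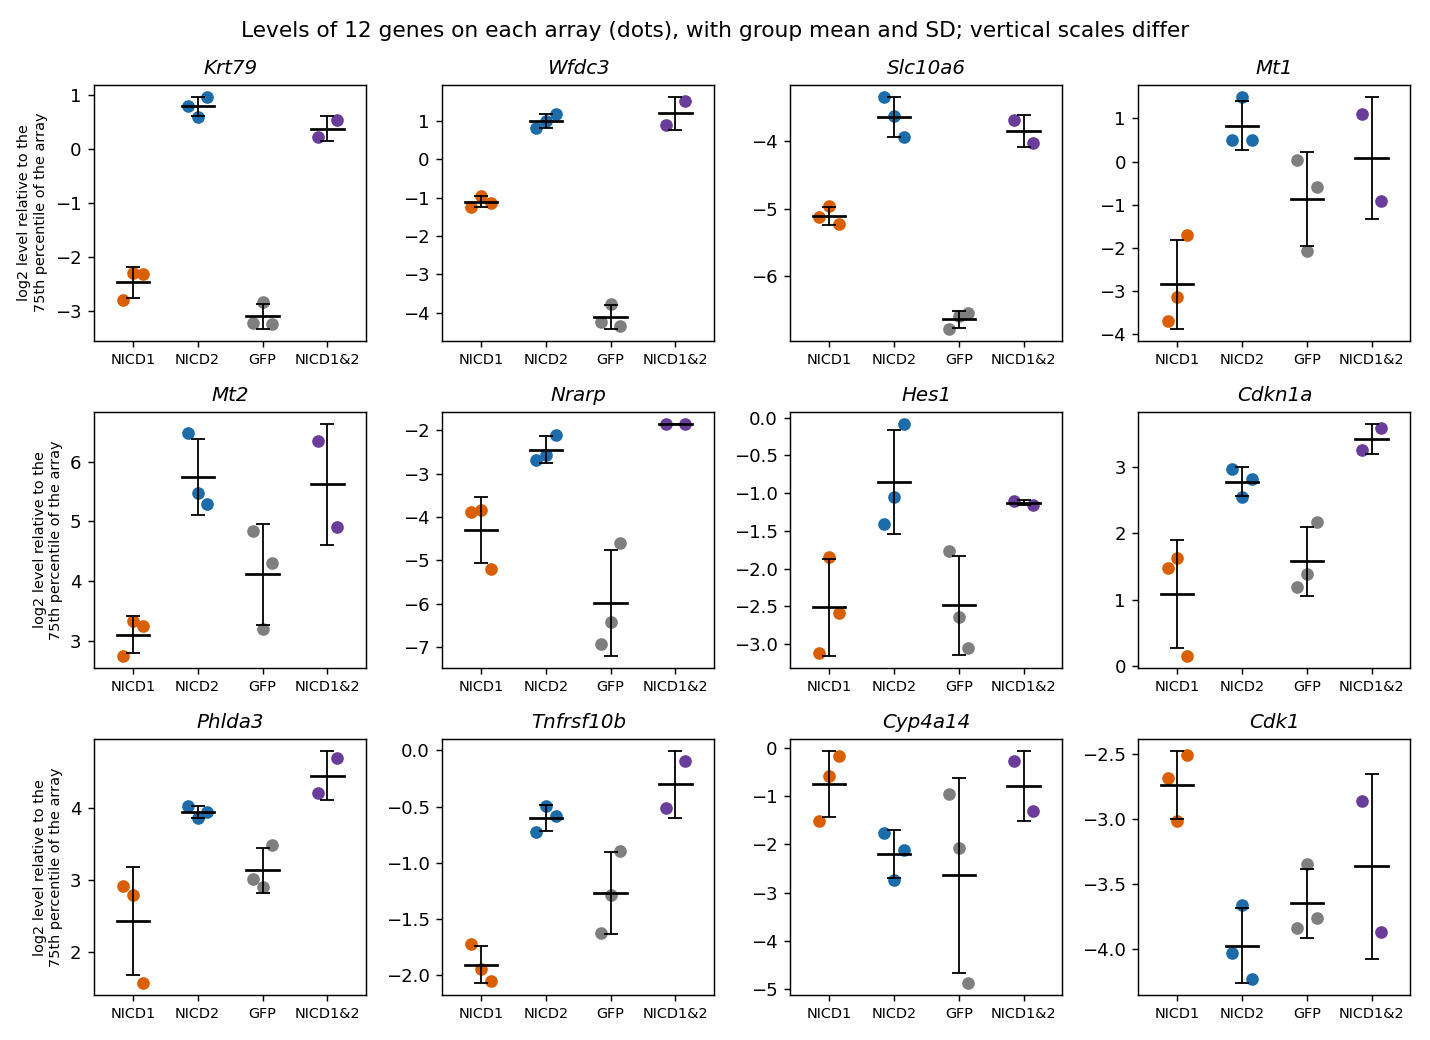
Log2 level relative to the 75th percentile of the array for 12 genes, on each array (dots) of the NICD1, NICD2, GFP and NICD1&2 groups, with the mean (bar) and SD (whiskers) of each group; vertical scales differ between panels. In all 12 panels the NICD1 and NICD2 dots do not overlap, and for Krt79 the NICD1 dots sit just above the GFP dots; the Mt1 panel shows its dimmer probe.

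Within the Notch pathway itself the differences were few. None of the adjusted p-values passed. The canonical targets included 2 of 16 tested genes that met the definition, both higher with NICD2 (0.445% of all genes), and 3 with each NICD2 array above each NICD1 array, a pattern that 6.83% of all genes showed. Nrarp, a target that feeds back on Notch, was at -3.90, -3.83 and -5.19 with NICD1 and at -2.68, -2.58 and -2.10 with NICD2. It was higher by 1.85 with NICD2 (standard error 0.57, limma adjusted p = 1). Of its NICD1 arrays 2 of 3 were well above background, and NICD1 3 was the lowest. Hes1, the repressor used most often as a readout of Notch, was at -3.12, -1.84 and -2.58 with NICD1 and at -1.41, -1.06 and -0.08 with NICD2, higher by 1.67 (standard error 0.45, limma adjusted p = 1). The NICD1 arrays lay within the span of the GFP arrays (-1.77, -2.64 and -3.06) or just under it, and the NICD1&2 arrays were at -1.11 and -1.15.

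For 13 of the other 14 targets the interval of the difference held 0, the exception being Snai2, a repressor of epithelial genes, which was higher by 0.61 with NICD2 (adjusted p = 1 in limma) and did not meet the definition. Hey1, a repressor related to Hes1, was at -2.50 ± 0.17 with NICD1 and -2.33 ± 0.16 with NICD2 (SD, n = 3 each), and its interval for NICD2 minus NICD1 ran from -0.17 to 0.52. Heyl differed by -0.20 (interval -0.74 to 0.33) and Spp1, osteopontin, by 0.10 (interval -0.35 to 0.56). Sox9, which marks bile duct cells, was at -1.67, -1.18 and -1.62 with NICD1 and at -1.27, -0.66 and -0.70 with NICD2, groups that overlapped, with a difference of 0.61 (interval -0.02 to 1.24). Myc, which drives growth, varied widely within groups, from -2.13 to 1.27 on the NICD1 arrays and from -2.29 to -0.88 on the NICD2 arrays, and its difference for NICD2 minus NICD1 was -1.29 (interval -3.69 to 1.11).

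Of the 7 tested receptor and ligand genes none met the definition. Jag1, the ligand that the study pairs with Notch2, was at -1.20, -1.06 and -1.05 with NICD1 and at -1.43, -1.55 and -1.31 with NICD2, lower by a small amount on each NICD2 array (-0.33, standard error 0.10, limma adjusted p = 1). Dll4, the ligand paired with Notch1, differed by -0.01 (interval -0.64 to 0.62). The probe of Notch1 was at 0.77 ± 0.20 with NICD1, 0.18 ± 0.52 with NICD2 and 0.55 with GFP, and that of Notch2 at 2.06 ± 0.07, 1.97 ± 0.10 and 1.76 (mean, with SD where given, n = 3 each). These probes do not check the labels, since it is not known here whether they read the part of the receptor that the vectors carry. The 31 tested cofactors and modulators of Notch held 0 genes that met the definition, and Rbpj itself differed by 0.05 (interval -0.28 to 0.38).

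Metallothioneins are small proteins that bind zinc and copper and are made in liver on exposure to metals or glucocorticoids. Mt1 and Mt2 had lower levels with NICD1 than with NICD2, without passing the adjusted test. Mt2 was at 2.75, 3.33 and 3.25 with NICD1 and at 6.47, 5.47 and 5.29 with NICD2, a difference of 2.64 (standard error 0.51, limma adjusted p = 0.649). Mt1 was measured by a pair of probes. The brighter one was at 6.23, 5.60 and 5.69 with NICD1 and at 7.84, 7.14 and 7.10 with NICD2 (difference 1.52, standard error 0.37), and the dimmer one differed by 3.68 (standard error 0.73). The NICD1 and NICD2 groups did not overlap on any of these probes. The GFP arrays of Mt2, at 4.84, 3.20 and 4.30, had a mean between the groups, and 1 of them lay among the NICD1 arrays. On the brighter Mt1 probe the GFP arrays were at 7.01, 5.69 and 6.15, and on the dimmer one at 0.05, -2.07 and -0.58. Their means too lay between the groups. The other 14 tested genes of the metallothionein and zinc transport list did not meet the definition. Over all genes 0.445% met it with NICD2 higher. Each NICD2 array was above each NICD1 array in 2 of the 16 members (12.5%), against 6.83% of all genes. The order was the opposite in 2 others (12.5%, against 4.17%), among them Slc30a10, 0.59 higher with NICD1 (standard error 0.19). Slc30a1, a zinc exporter that the metal-responsive factor also controls, was at 1.61 ± 0.19 with NICD1 and 1.67 ± 0.15 with NICD2 (SD, n = 3 each), and Mtf1, that factor, differed by 0.05.

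Targets of p53, the transcription factor that halts the cell cycle and can start cell death upon DNA damage or other stress, had lower levels in NICD1 livers across most of a list. All 38 genes of the list, which was chosen with earlier results of these data known, were tested. Of these, 34 had a lower mean with NICD1, against 54.3% of all genes. In 19 of the 38 (50%) each NICD2 array lay above each NICD1 array, against 6.83% of all genes, and in 0 was the order the opposite, which 4.17% of all genes showed. The definition was met by 7 with NICD2 higher and 0 with NICD1 higher, against 0.445% and 0.565% of all genes. At an unadjusted p under 0.05 there were 16, all higher with NICD2, against 2.52% of all genes in that direction and 1.74% in the other, while the lowest adjusted p of a member was 0.309. The median difference of the list was 0.24 higher with NICD2, against 0.02 over all genes.

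Cdkn1a, the gene of p21, which inhibits cyclin-dependent kinases, was at 1.48, 1.63 and 0.15 with NICD1 and at 2.98, 2.55 and 2.82 with NICD2. It was higher by 1.69 with NICD2 (standard error 0.39, limma adjusted p = 0.918), and by 1.22 without NICD1 3, the lowest array. Its other probe gave 0.90. Phlda3, which restrains Akt signalling, was at 2.92, 2.79 and 1.56 with NICD1 and at 4.03, 3.86 and 3.95 with NICD2, higher by 1.52 (standard error 0.34), and by 1.09 without NICD1 3. Here too NICD1 3 stood below its group while the NICD2 arrays lay close together.

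Tnfrsf10b, a death receptor for TRAIL, did not rest on that array: it was at -1.72, -1.94 and -2.05 with NICD1 and at -0.73, -0.50 and -0.59 with NICD2. The difference was 1.30 (standard error 0.20, limma adjusted p = 0.309), and that of a dimmer probe was 0.64. Eda2r, another receptor of the same family, was higher by 0.87 (standard error 0.17), at -1.71, -1.13 and -1.63 against -0.56, -0.58 and -0.70. The other 3 that met the definition, Psrc1 at 1.28, Gtse1 at 1.1 and Ckap2 at 0.93, act on microtubules and are also members of the list of G2/M phase genes. Smaller differences with groups that did not overlap were seen in Mdm2, the ubiquitin ligase that degrades p53 (0.51, standard error 0.16), in Ccng1, cyclin G1 (0.47, standard error 0.15), and in Zmat3 (0.30, standard error 0.13). Bax and Ephx1 overlapped between the groups, at 0.21 and 0.03, and Plk3 had a mean lower by 0.73 with NICD2.

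The arrays outside the comparison were set beside this list. Taking the median over the 38 genes of their distance from the mean of the 6 arrays, the NICD1 arrays were at -0.07, -0.07 and -0.27, the NICD2 arrays at 0.17, 0.13 and 0.16, the GFP arrays at -0.05, 0.04 and 0.07, and the NICD1&2 arrays at 0.30 and 0.52. The GFP arrays thus lay between the groups and the NICD1&2 arrays above both. NICD1&2 1 was nearer to the NICD2 mean than to the NICD1 mean in 30 of 38 members (78.9%) and NICD1&2 2 in 33 (86.8%), against 52.0% and 57.3% of all genes on the same arrays. The GFP arrays were nearer to NICD2 in 12, 17 and 25 of 38 members (31.6%, 44.7% and 65.8%), against 49.6%, 45.1% and 49.4% of all genes. The array NICD1&2 2 stood 0.18 above the 6 arrays over all genes as well. With NICD1 3 left out, 30 of 38 members had a higher mean with NICD2. Within slide 1 the mean was higher with NICD2 in 29 of 38 members and within slide 2 in 32.

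**Figure D3:**
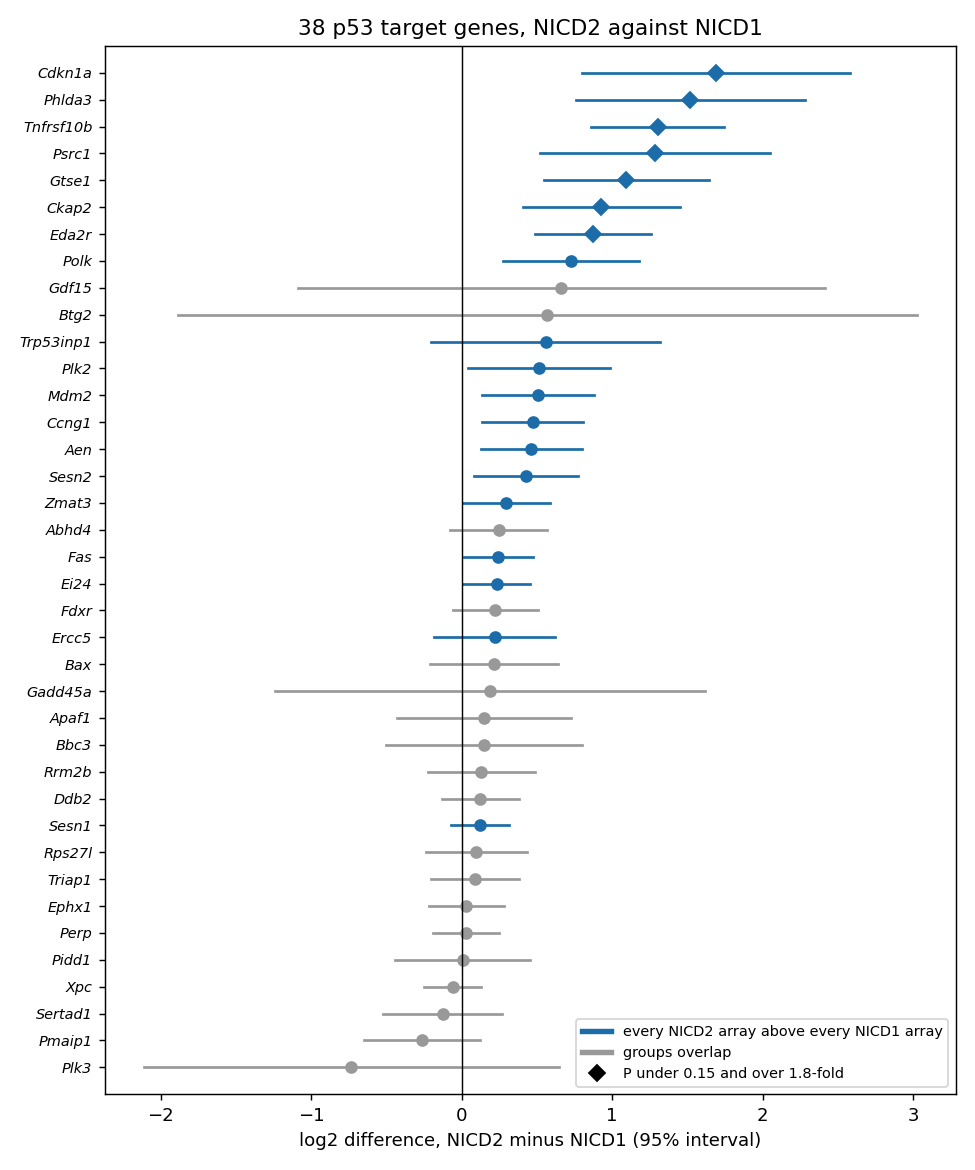
Difference between the NICD2 and NICD1 groups (horizontal axis, log2, NICD2 minus NICD1, with its 95% interval) for each of the 38 p53 target genes. The 19 blue genes have each NICD2 array above each NICD1 array, diamonds mark the 7 that met the study's definition, and 34 of the 38 points lie to the right of 0.

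Some genes outside the list, named after their values were seen, had differences of the same direction. Ddit4l, an inhibitor of mTOR signalling, was higher by 1.39 with NICD2 (standard error 0.25) and Susd6 by 0.55 (standard error 0.10). Inka2, a kinase inhibitor, was at least 1.92-fold higher with NICD2 by the bound (interval of NICD2 minus NICD1 1.15 to 2.11). For all 3 the groups did not overlap. Of 28 tested pro-apoptotic genes 1 met the definition, Tnfrsf10b, and of 13 tested anti-apoptotic genes 0 did, against 0.445% of all genes with NICD2 higher. Means were higher with NICD2 in 19 of the 28 pro-apoptotic genes, and each NICD2 array was above each NICD1 array in 6 of them (21.4%, against 6.83% of all genes) and in 3 of the 13 anti-apoptotic genes (23.1%), with 0 in the opposite order in both lists.

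Probes higher with NICD1 were mostly dim, 89 of 262 being well above background on all 3 arrays of that group. Cdk1, the kinase that drives mitosis, was at -2.68, -3.02 and -2.51 with NICD1 and at -4.03, -3.66 and -4.23 with NICD2, 1.23 higher with NICD1 (standard error 0.28, limma adjusted p = 0.870). Cdk1 did not move with its list. Of 41 tested G2/M phase genes it was the one that met the definition with NICD1 higher, 4 met it with NICD2 higher (Psrc1, Gtse1, Ckap2 and Cenpe), against 0.565% and 0.445% of all genes, and the list median was 0.03 higher with NICD1. Cenpe, a motor protein of mitosis, had overlapping groups and was well above background on 1 NICD1 and 2 NICD2 arrays, and its difference was 0.95 with all arrays, 0.46 without NICD1 2 and 1.59 without NICD1 3. Mki67 differed by -0.13 and Top2a by -0.12 for NICD2 minus NICD1. Of 41 tested S phase genes, Dtl, which marks proteins for destruction during DNA replication, was the one that met the definition. It was at least 1.61-fold higher with NICD1 by the bound, being not well above background on any NICD2 array. The interval of NICD1 minus NICD2 ran from 0.44 to 2.58.

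Of the cytochromes of the Cyp4a family, which hydroxylate fatty acids and are known targets of the receptor PPAR alpha, Cyp4a14, Cyp4a10 and Cyp4a31 met the definition with NICD1 higher, each with a limma adjusted p of 1. Cyp4a14 was at -1.51, -0.59 and -0.18 with NICD1 and at -1.76, -2.73 and -2.12 with NICD2, a difference of 1.44 (standard error 0.87, 95% interval -0.52 to 3.41), with GFP spread from -4.88 to -0.95. Cyp4a10 was higher by 1.1 (standard error 0.46) and Cyp4a31 by 0.93 (standard error 0.46) on its brighter probe and 1.18 (standard error 0.51) on its dimmer one. These genes are near copies of each other, and their probes may share signal. Cyp2b10 and Cyp2b9, which respond to the receptor CAR, went the other way, higher with NICD2 by 1.33 (standard error 0.49) and 1.30 (standard error 0.48). NICD2 1 was the highest array for both, at 4.38 for Cyp2b10 against 3.15 and 3.05 on the other NICD2 arrays. Of 36 tested cytochromes the other 31 did not meet the definition, and 13.9% did. Over all genes 0.565% met it with NICD1 higher and 0.445% with NICD2 higher. Of 23 tested genes of fatty acid oxidation 0 met it.

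Phlda1, a gene induced by growth factors, was higher by 1.25 with NICD1 (standard error 0.63), with NICD2 arrays at 4.51, 4.49 and 4.54 and NICD1 arrays spread from 4.94 to 6.51. Kcnj15, a potassium channel, was at least 1.81-fold higher with NICD1 by the bound, and Lrp2bp at least 2.08-fold. Their intervals for NICD1 minus NICD2 ran from 0.80 to 1.79 for Kcnj15 and from 0.48 to 2.35 for Lrp2bp. The difference of Nckipsd and that of Wwp1 were not shared by their other probes. Areg, a growth factor of the EGF family, met the definition by 1.26 but was not well above background on any of the 6 arrays.

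Of 26 tested hepatocyte genes, 21 bile duct genes, 23 genes of Kupffer cells and myeloid cells, 25 lymphocyte, 16 stellate cell, 17 endothelial and 28 interferon response genes, 0 met the definition, which 0.565% and 0.445% of all genes met in the 2 directions. Means were higher with NICD2 in 20 of the 26 hepatocyte genes, 17 of the 23 Kupffer and myeloid genes and 13 of the 16 stellate cell genes, against 54.3% of all genes. With quantile normalization the median of the hepatocyte genes turned from 0.09 higher with NICD2 to 0.01 higher with NICD1. Each NICD2 array was above each NICD1 array in 4 of the 16 stellate cell genes (25%), 2 of the 26 hepatocyte genes (7.69%) and 2 of the 23 Kupffer and myeloid genes (8.70%), against 6.83% of all genes. Krt19 of bile ducts was at -2.10 ± 0.04 with NICD1 and -2.08 ± 0.42 with NICD2, Clec4f of Kupffer cells at 4.22 ± 0.04 and 4.40 ± 0.15, Cd3e of T cells at 0.93 ± 0.02 and 0.98 ± 0.02, and Stab2 of sinusoidal endothelium at 3.72 ± 0.18 and 3.73 ± 0.23 (SD, n = 3 each). Krt8 and Krt18, the keratin pair of hepatocytes, were higher on every NICD2 array, by 0.35 and 0.27. Of the 15 tested keratins, Krt79 and Krt5 met the definition, 1 in each direction. Krt5 was at least 1.55-fold higher with NICD1 by the bound for dim signal, which leaves out the spread between arrays. Its interval for NICD1 minus NICD2 ran from 0.28 to 1.71. Krt5 had overlapping groups and was not well above background on any NICD2 array.

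Acute phase proteins are secreted by the liver in inflammation, and 21 of 26 tested had a higher mean with NICD2, against 54.3% of all genes. Each NICD2 array was above each NICD1 array in 10 of 26 genes (38.5%, against 6.83% of all genes). The definition was met by 1 of the 26 (3.85%), against 0.445% of all genes with NICD2 higher. This gene was Lcn2, which binds bacterial siderophores. It was at -0.31, 0.07 and 0.19 with NICD1 and at 1.5, 1.34 and 1.09 with NICD2, higher by 1.33 (standard error 0.49, limma adjusted p = 1). The GFP arrays spread wider, from -0.60 to 1.61. Saa4 was higher by 0.46 (standard error 0.09) and Saa2 by 0.82 (standard error 0.49). The list median was 0.14 higher with NICD2 and 0.03 higher with quantile normalization, so its size moved with the scaling.

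Among genes of metabolism and rhythm, Pfkfb4, an enzyme that controls glycolysis, was at -0.83, -0.32 and -1.06 with NICD1 and at 0.04, 0.14 and 0.23 with NICD2. It was higher by 0.87 (standard error 0.19), and the GFP arrays were lower than both groups, at -2.51, -2.98 and -2.62. Pfkfb4 was the one of 29 tested genes of glucose metabolism that met the definition, against 0.445% of all genes with NICD2 higher. In 6 of the 29 (20.7%) each NICD2 array was above each NICD1 array, against 6.83% of all genes, with 0 in the opposite order. Ciart, a repressor in the circadian clock, was higher by 0.85 with NICD2 (standard error 0.18), at -0.17, 0.39 and 0.25 against 1.16, 0.84 and 1.04. It was the one of 20 clock genes that met the definition, against the same 0.445%. In 5 of the 20 (25%) each NICD2 array was above each NICD1 array, with 0 in the opposite order. Lipogenesis (20 tested), cholesterol synthesis (24) and genes of perivenous (15) and periportal (13) hepatocytes held 0 that met the definition. Over all genes 0.565% met it with NICD1 higher and 0.445% with NICD2 higher. On every NICD2 array 5 of the 13 periportal genes, among them Pck1, and 4 of the 15 perivenous genes were higher. These were 38.5% and 26.7%, against 6.83% of all genes, and both lists had a median 0.12 higher with NICD2.

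**Figure D4:**
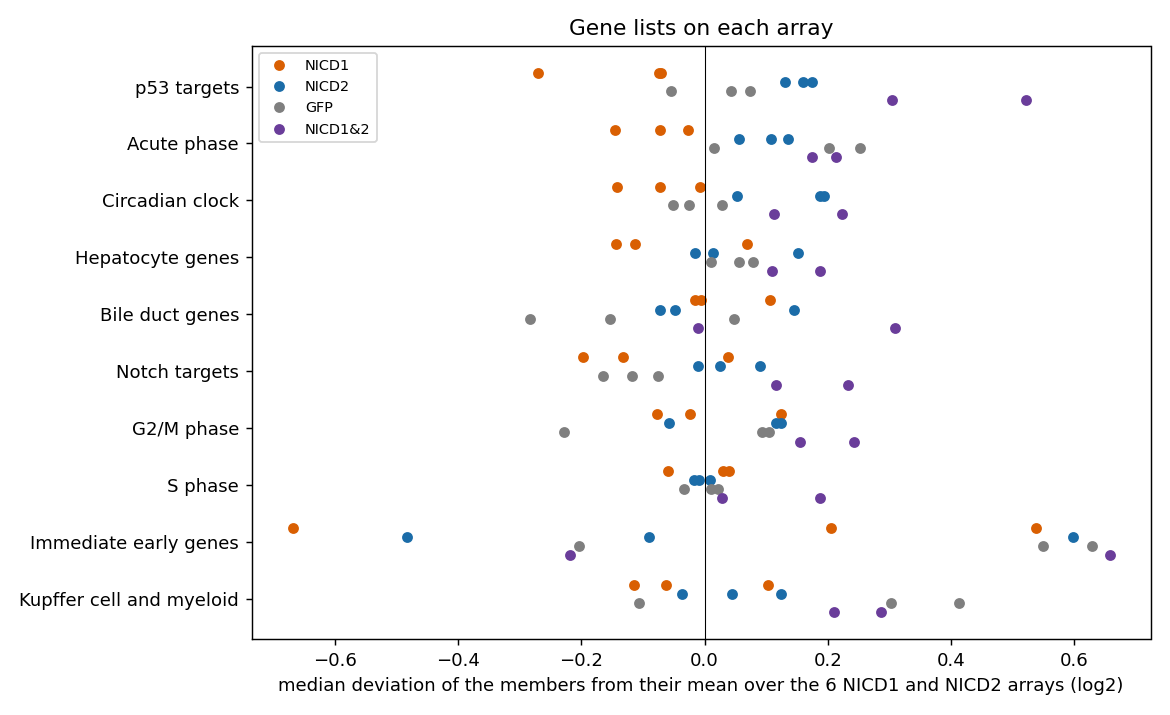
Median over the tested members of each gene list of their distance from the mean of the 6 NICD1 and NICD2 arrays (horizontal axis, log2), for each array, coloured by group. For p53 targets the NICD2 dots (0.13 to 0.17) lie to the right of the NICD1 dots (-0.27 to -0.07), and immediate early genes spread from -0.67 to 0.54 within NICD1 alone.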

How the data were processed

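Agilent 1-colour arrays measured liver RNA of 4 groups. Per the file headers, the authors' Feature Extraction 11.5.1.1 subtracted background and made the deposited intensity of each spot, and the build is mm9. The deposited table holds the authors' log2 values, and 99.9788% or more of them on each array lay within 0.01 of those computed here, so they are scaled to the same percentile. The methods and the labels name different RNA kits.

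Control spots and spots with an outlier flag were left out, spots of a probe were averaged, and log2 intensity less the 75th percentile was used. A probe was kept where 2 or more of the 11 arrays had it well above background. For 63 tested probes a value was missing on some array, and the fit went on without it. A model with 1 mean per group over all 11 arrays was fitted with limma 3.58.1 in R 4.3.3 (lmFit and eBayes), with Benjamini-Hochberg adjustment over 36052 probes. Exact permutation of the 6 arrays was two-sided, with 20 arrangements. Of 56605 probes, 32994 were named by RefSeq accession, and a gene was taken at its probe with the highest mean over 11 arrays. The fit was tested on simulated data.

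Genes were named by these rules: called probes, with 1 probe a gene the 12 highest and the 12 lowest differences among probes that met the study's definition with groups apart and with the higher group well above background, list members that met the definition, and the Notch, cell cycle and cell type markers. Others were named after their values were seen. The comparison, its members and all 36 gene lists were chosen with earlier results of these data known. The alternatives were other normalizations, filters, models, thresholds and probes, slide or replicate number as a block, and leaving out each array.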

Additional observations from a re-analysis of the deposited data

How the results depend on the processing

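The 46 named probes that met the definition kept their direction under each other normalization, model and block and without each array, and so did the 45 and 23 of them that the stricter filters kept. Normexp was run with quantile normalization, so that these choices changed together, and under it 29 of them moved by over 1.5-fold. Probes with an adjusted p under 0.05 numbered 2 with quantile normalization, with the percentile over probes detected on all arrays and with a filter on the 6 arrays (Krt79 and Wfdc3), 5 with normexp (probes of Krt79, Wfdc3 and Tmprss7, and A_66_P115236), and 0 with the 6 arrays alone, where the lowest was 0.0645 and 1504 probes had an unadjusted p under 0.05 in limma. They numbered 1 to 2 when each array was left out, the second without NICD2 1 being Hs6st2, and the adjusted p of Krt79 then ran from 0.00482 to 0.0162. Probes that met the definition numbered 41 with normexp, 1548 with no filter, 86 where all arrays had to be well above background, 161 at P under 0.05 and over 2-fold, and 3 at an adjusted p under 0.15. They numbered 473 to 813 when each array was left out, with 813 without NICD2 1 and 720 without NICD2 3. The share of them higher with NICD1 was 59.8%, and it was 49.1% with quantile normalization, 41.5% with normexp, 49.8% with slide as a block, 27.9% with probes well above background on all arrays, and 41.9% to 70.8% when each array was left out. The p53 targets that met the definition numbered 2 with normexp, 9 with slide as a block and 5 to 8 when each array was left out. For the Fam107a, Nckipsd and Wwp1 genes another probe had the opposite sign: 0.25 for Fam107a, -0.11 and -0.012 for Nckipsd and -0.20 for Wwp1 (NICD1 minus NICD2). The median of the hepatocyte genes was 0.09 higher with NICD2 and 0.01 higher with NICD1 with quantile normalization. The cause of these changes was not tested.

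Same-numbered NICD1 and NICD2 arrays had residual correlations of 0.18, -0.28 and 0.17. The arrays numbered 1 shared a slide, as did those numbered 3, while those numbered 2 did not. These values therefore do not show whether same-numbered samples belong together. With the replicate number as a block 1 probe was called and 452 met the definition. The precision is limited by 3 arrays in each group, and, for dim probes, by background.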

Other observations

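Immediate early genes, which are switched on within minutes by handling, growth factors or stress, differed more between arrays of a group than between the groups. Over 30 tested members the median distance from the mean of the 6 arrays was -0.67, 0.21 and 0.54 on the NICD1 arrays, -0.48, -0.09 and 0.60 on the NICD2 arrays, -0.20, 0.55 and 0.63 on the GFP arrays and -0.22 and 0.66 on the NICD1&2 arrays. On slide 2 all arrays were at 0.21 to 0.66, and on slide 1 all but GFP 2, at 0.55, were at -0.67 to -0.09. Within each group the values also rose with the replicate number. The cause was not tested. Of the 30 members, 0 met the definition.

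Over 24 genes of cholesterol synthesis the same median was 0.33, -0.13 and -0.14 on the NICD1 arrays, 0.07, 0.05 and -0.16 on the NICD2 arrays, 0.27, 0.30 and 0.21 on the GFP arrays and 0.08 and -0.02 on the NICD1&2 arrays.

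The dim end of the array held many of the probes higher with NICD1: 79 of these 262 were well above background on at most 1 array of each group, against 35 of the 176 that were higher with NICD2.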
